A study of Mus musculus with 2 samples.

Results

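SRCAP, the ATPase of the remodeler named after it, takes H2A out of nucleosomes and puts in the variant H2A.Z. H2A.Z is known to mark the nucleosomes on either side of active transcription start sites (TSSs), among them those of CpG-rich promoters in embryonic stem cells. Many mammalian promoters lie close to the start of another gene, so that a bound protein cannot be assigned to a single TSS or to a direction of transcription. Promoters without such a neighbor allow SRCAP to be placed before or after the TSS of 1 gene. They were defined here as the most 5′ TSS of a protein-coding gene, with no annotated transcript start of any other gene, of any kind, within 5000 bp. SRCAP peaks of both replicates were pooled and merged where they overlapped or adjoined, and a region was kept if it overlapped the window from 1000 bp before to 500 bp after such a TSS. Of 15658 merged SRCAP regions, 3419 met this rule. They lay at 3343 of the 13422 isolated coding genes, which are part of 21938 coding genes in all. The rule used peak positions and the annotation and no scores, and its window reaches farther before the TSS than after it. With a window of 500 bp on either side the mean of the median midpoints given below was 75.5 bp after the TSS, in place of 72 bp.

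The data are 2 CUT&Tag replicates of 1 group, SYAT cells in the control condition (NT). SYAT cells derive from the mouse embryonic stem cell line CGR8, carry YPet and an auxin-inducible degron on both alleles of Srcap and express the auxin receptor OsTir1. They were passaged in serum with LIF, CHIR99021 and PD184352, moved to serum with LIF 3 days before the experiment, and kept with auxinole against basal degradation of SRCAP, at a dose given as 200 nM in the labels and as 200 µM in the study's methods. An anti-GFP antibody, which recognizes YPet, directed the transposase Tn5 to tagged SRCAP in 200000 cells mixed with 10000 Drosophila nuclei, with transposition for 1 h. No auxin-treated or control library is analysed here, and peak lists hold no expression, so the stem cell identity could not be checked by markers. With 1 group of 2 samples no difference between conditions could be tested, and genes or peaks of 1 library are not replicates. Values are therefore given per replicate, and intervals are 95% Wilson intervals that cover counting error only. The study gives its replicates as biological ones, grown and treated separately. Sequencing depth is unknown.

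Replicate 1 held 6158 peaks and replicate 2 held 12958, of which 1513 (24.6%) and 2984 (23.0%) lay at isolated promoters. Among isolated coding genes, a peak was listed at 11.2% in replicate 1 and at 22.0% in replicate 2, with 8.36% having one in both. Among all coding genes these shares were 13.6%, 26.4% and 10.4%. The mean over replicates was 16.6% ± 7.63 (SD, n = 2). With the list of replicate 2 reduced to its strongest peaks, as many as replicate 1 holds, its share fell to 13.6%, and that at CpG-rich promoters, defined below, to 28.0%. Each peak has a score from the authors' peak caller, read as 10 times the −log10 of the q-value and cut to a whole number, and it served to rank, filter and describe the peaks of each list. Its size is not comparable between the lists.

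The upstream sequences of 7 member genes are printed as examples. Some were chosen for few or many CpG dinucleotides, so their spread is not that of all members. Each line gives the 200 bases before the TSS in GRCm38 (the assembly of mm10), 5′ to 3′ on the gene's strand, for members found in both replicates. Evi5l, Upf3a and Ap2a1 were chosen from the members with the best ranks, Zfp960 and 2610044O15Rik8 from those with few CpG dinucleotides, and Arhgap5 and Zdhhc5 from those with the most. Capitals mark 3 motifs on either strand. The first is GCCAAT, the element read by the trimeric factor NFY. The second is the GC box of Sp and Klf factors, spelled GGGGCGG. The third is the site of ETS family factors, for which the letters CCGGAAG were searched. The stretches lie at chr8:4166367-4166566, plus strand (Evi5l), chr8:13785415-13785614, plus strand (Upf3a), chr7:44929497-44929696, minus strand (Ap2a1), chr17:17063913-17064112, plus strand (Zfp960), chr8:129234407-129234606, minus strand (2610044O15Rik8), chr12:52503772-52503971, plus strand (Arhgap5) and chr2:84715181-84715380, minus strand (Zdhhc5).
Evi5l: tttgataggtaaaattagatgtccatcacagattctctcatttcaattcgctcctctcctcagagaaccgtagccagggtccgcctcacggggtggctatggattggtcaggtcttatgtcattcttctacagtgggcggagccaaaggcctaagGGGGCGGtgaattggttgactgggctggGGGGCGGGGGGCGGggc
Upf3a: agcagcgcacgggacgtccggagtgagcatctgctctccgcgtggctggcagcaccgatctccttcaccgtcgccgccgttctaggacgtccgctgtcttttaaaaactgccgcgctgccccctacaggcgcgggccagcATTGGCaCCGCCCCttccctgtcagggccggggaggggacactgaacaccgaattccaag
Ap2a1: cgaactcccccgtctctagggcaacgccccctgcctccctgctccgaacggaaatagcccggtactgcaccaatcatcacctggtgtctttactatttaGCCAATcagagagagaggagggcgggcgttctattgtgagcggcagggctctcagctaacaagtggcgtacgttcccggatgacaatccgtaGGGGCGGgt
Zfp960: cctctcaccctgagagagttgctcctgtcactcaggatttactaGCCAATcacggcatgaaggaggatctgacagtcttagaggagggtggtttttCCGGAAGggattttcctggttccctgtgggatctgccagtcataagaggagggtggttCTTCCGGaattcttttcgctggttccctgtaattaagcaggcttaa
2610044O15Rik8: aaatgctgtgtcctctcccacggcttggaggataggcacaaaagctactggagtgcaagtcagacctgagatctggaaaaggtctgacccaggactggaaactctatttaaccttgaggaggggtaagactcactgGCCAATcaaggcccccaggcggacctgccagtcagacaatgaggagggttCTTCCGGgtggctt
Arhgap5: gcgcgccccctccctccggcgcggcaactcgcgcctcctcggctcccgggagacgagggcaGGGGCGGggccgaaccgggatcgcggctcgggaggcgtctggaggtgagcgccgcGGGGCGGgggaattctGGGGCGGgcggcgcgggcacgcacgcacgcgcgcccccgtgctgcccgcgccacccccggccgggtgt
Zdhhc5: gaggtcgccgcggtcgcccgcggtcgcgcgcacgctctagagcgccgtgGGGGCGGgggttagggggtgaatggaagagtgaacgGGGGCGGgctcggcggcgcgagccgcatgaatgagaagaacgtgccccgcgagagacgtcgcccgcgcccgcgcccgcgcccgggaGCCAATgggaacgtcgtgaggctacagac
The number of CpG dinucleotides in these stretches was 3 at 2610044O15Rik8, 4 at Zfp960, 8 at Evi5l, 14 at Ap2a1, 20 at Upf3a, 34 at Zdhhc5 and 35 at Arhgap5.

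The first question was which isolated promoters carried SRCAP. CpG content was measured as the observed over expected number of CpG dinucleotides in the TSS base and the 500 bp on either side of it. Promoters of at least 0.6 are called CpG-rich, those under 0.4 CpG-poor and the rest CpG-middle. A peak was found at 22.3% (21.2 to 23.5) of the 5171 CpG-rich isolated promoters in replicate 1 and at 43.8% (42.4 to 45.1) in replicate 2. At the 1837 CpG-middle promoters the shares were 15.1% (13.6 to 16.8) and 28.4% (26.3 to 30.5). At the 6414 CpG-poor promoters they fell to 1.20% (0.962 to 1.50) and 2.70% (2.33 to 3.12). The intervals of the 3 classes did not overlap in either replicate.

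**Figure D1:**
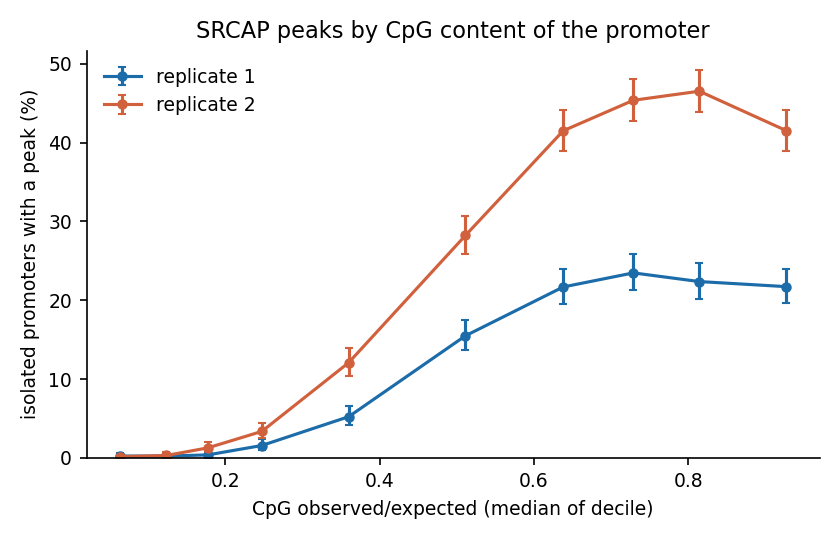
Percent of isolated coding promoters with a SRCAP peak (y axis) against the median CpG observed over expected ratio of each of 10 equal groups (deciles) of these promoters (x axis). Points are replicates 1 and 2 and bars are 95% Wilson intervals; the share climbs from 0.223% and 0.149% in the lowest decile to 21.7% and 41.5% in decile 7 and stays within 21.7% to 23.5% and 41.5% to 46.5% from there on.

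Split into deciles, the share with a peak rose with CpG content up to decile 7, at 21.7% and 41.5%, and was then flat. The top decile gave 21.7% and 41.5% again. Within CpG-rich promoters the amount of CpG no longer separated genes with and without a peak. The median ratio was 0.776 for the 901 genes found in both replicates and 0.776 for the 2656 found in neither, with GC contents of 61.5% and 62.0%. Their median gene spans were 35.3 kb and 32.0 kb. These 2656 of 5171 CpG-rich isolated promoters had no listed peak in either replicate, which at unknown depth is not the same as absence of SRCAP.

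Short sequence motifs were then compared among CpG-rich promoters. They were searched on both strands from 250 bp before to 50 bp after the TSS. The NFY letters GCCAAT were present in 27.4% (24.6 to 30.4) of CpG-rich isolated promoters with a peak in both replicates, in 21.1% (19.1 to 23.1) of those with a peak in 1 and in 15.4% (14.1 to 16.9) of those with none, against 17.0% of all coding promoters. Read the other way, CpG-rich promoters with these letters had a peak in 30.9% and 52.8% of cases in replicates 1 and 2, against 22.3% and 43.8% of all CpG-rich isolated promoters. The GC box letters GGGGCGG did not follow this order, at 52.6%, 48.5% and 51.6% of CpG-rich promoters with a peak in both, in 1 and in no replicate (28.5% of all coding promoters). The ETS letters CCGGAAG were at 15.5%, 17.5% and 14.2% (10.8% of all). The letters GCGCATGCG of NRF1, itself a factor of CpG-rich promoters, were in 202 CpG-rich isolated promoters. Of these, 23.8% had a peak in replicate 1 and 60.4% in replicate 2. The replicates thus differ here by more than at CpG-rich promoters as a whole. Letters of ZBTB33, YY1, E2F, CREB/ATF and the E-box were searched too. The 109 CpG-rich promoters with ZBTB33 letters CTCGCGAG had a peak at 28.4% and 57.8% in replicates 1 and 2. With YY1 letters the shares were 27.04% and 48.5%, with E2F letters 25.6% and 46.1% and with CREB/ATF letters 24.6% and 44.6%. With E-box letters they were 21.03% and 46.4%. NFY letters were thus not the only ones above the 22.3% and 43.8% of all CpG-rich isolated promoters. At the other end, the TATA letters TATAAA, counted on the sense strand 40 to 20 bp before the TSS, were in 373 isolated promoters, of which 2.14% and 6.17% had a peak. Among CpG-rich promoters alone these letters were in 47, with a peak at 10.6% and 25.5%. AP-1 letters TGANTCA were in 3.30% of isolated promoters with a peak in both replicates and in 8.84% of those with none (6.91% of all coding promoters), but within CpG-rich promoters at 3.00% and 3.69%. A match of letters is a description and does not show that a factor was bound.

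The second question was where SRCAP lay relative to the TSS. Member peaks lay slightly downstream of it, in the direction of transcription. The median peak midpoint was 64 bp after the TSS in replicate 1 and 80 bp after it in replicate 2, a mean of 72 ± 11.3 bp (SD, n = 2). The TSS itself was inside 50.2% (47.6 to 52.7) and 55.7% (53.9 to 57.5) of member peaks. Of midpoints within 500 bp on either side, 59.8% (57.2 to 62.3) and 61.2% (59.4 to 63.1) were downstream. Coverage, counted as the share of isolated genes with a peak at each position, was highest 100 bp after the TSS in replicate 1 (6.27%) and 80 bp after it in replicate 2 (13.3%). Peaks that held the TSS began at a median of 157 and 161 bp before it and ended 241 and 276 bp after it.

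**Figure D2:**
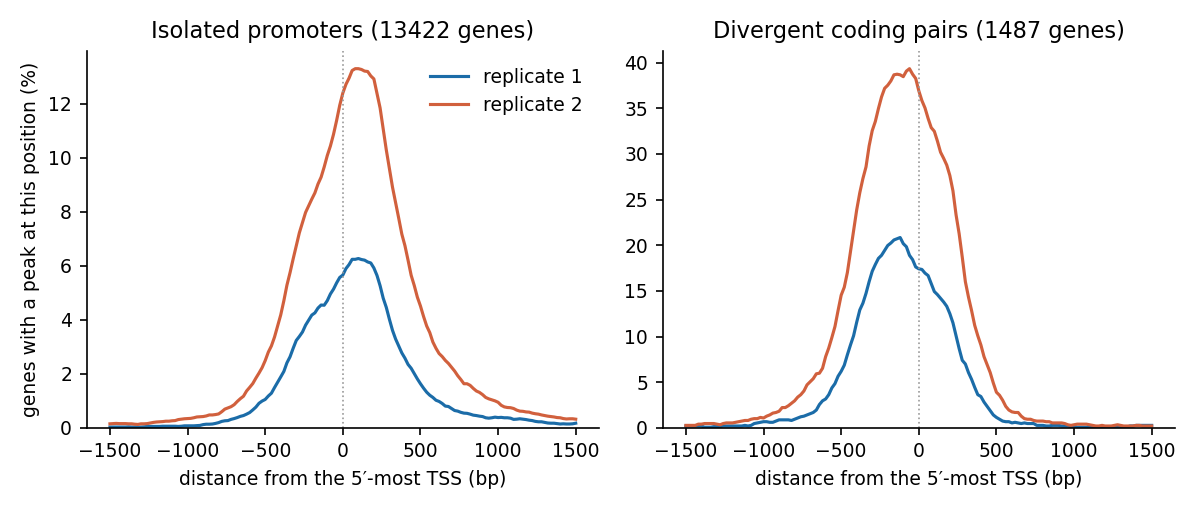
Percent of genes covered by a peak (y axis) at each distance from the most 5′ TSS in the direction of transcription (x axis), for 13422 isolated genes (left) and 1487 genes of divergent coding pairs (right), with 1 line per replicate and a different y scale in each panel. The lines of isolated genes top out 100 and 80 bp downstream, those of divergent pairs 120 and 60 bp upstream.

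Divergent pairs, in which the TSS of another coding gene lies within 1000 bp upstream on the other strand, leaned the other way. Their midpoints had medians of −107 and −93 bp, and 33.1% (28.9 to 37.6) and 36.3% (33.0 to 39.6) of them were downstream. In such a pair the space upstream of a TSS is also the neighbor's promoter, and its peaks count for both genes. Isolated genes whose transcripts all start within 500 bp of the most 5′ TSS, where the choice of TSS matters least, gave 63.1% (58.4 to 67.6) and 64.9% (61.5 to 68.2) downstream. In those with an intron the median first exon of genes with a peak was 213 and 220 bp long. Midpoints lay before the TSS at 38.2% and 35.1% of these peaks, in the first exon at 40.8% and 41.4% and past it for 91 of 434 and 187 of 793 peaks. In genes with several starts, 43.3% and 44.8% of member peaks lay nearer to another start of the same gene than to the most 5′ one.

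The side of the TSS changed with CpG content. For CpG ratios of 0.4 to 0.6, 72.4% (66.7 to 77.5) and 73.9% (69.8 to 77.6) of midpoints were downstream, at medians of 118 and 133.5 bp after the TSS. From 0.6 to 0.7 the downstream shares were 70.5% and 73.4%, and from 0.7 to 0.8 they were 60.1% and 60.9%. From 0.8 to 0.9 they were 47.6% (41.7 to 53.5) and 49.5% (45.4 to 53.7), so that peaks lay on both sides alike. At ratios of 0.9 and more they were 37.8% (30.9 to 45.2) and 42.4% (37.1 to 48.0), and the medians were −157 and −136 bp. CpG-poor members, with 78 and 173 peaks, were at 71.9% and 59.0%.

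**Figure D3:**
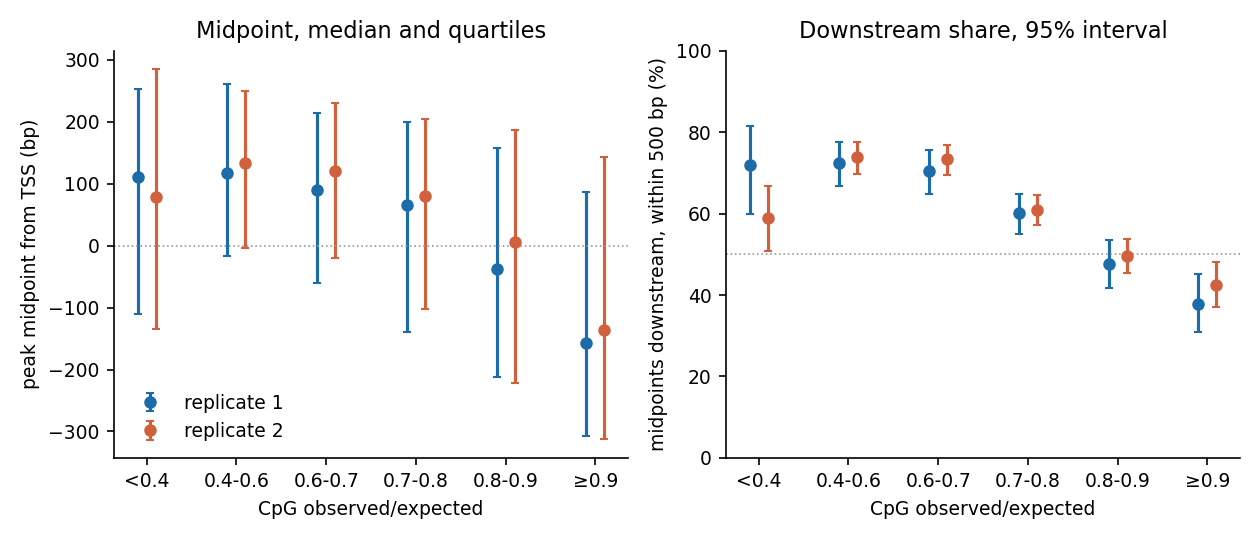
Member peaks by CpG observed over expected ratio of the promoter (x axes), with the peak midpoint in bp from the TSS on the left (points are medians, bars quartiles) and the percent of midpoints downstream among those within 500 bp on the right (bars are 95% Wilson intervals), for replicates 1 and 2. Medians move from 118 and 133.5 bp downstream at ratios of 0.4 to 0.6 to 157 and 136 bp upstream at 0.9 and more.

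The difference in downstream share between ratios under 0.6 and ratios of 0.8 or more was 28.5 percentage points in replicate 1 and 23.5 in replicate 2, a mean of 26.0 ± 3.56 (SD, n = 2). This split was chosen after seeing the values. Among single-start genes the same difference was 27.9 and 19.5 points, and with peaks of a score of at least 50 it was 42.0 and 32.7. With peaks that contain the TSS it was smaller, at 18.5 and 13.1 points. Base composition at the peaks was read as well. At ratios of 0.9 and more, a window of 100 bp to either side of the TSS had a median GC content of 72.6% and 73.1% in members of replicates 1 and 2, and the same window around the peak midpoint 67.2% and 66.2%. GC content was lower at the midpoint than at the TSS for 67.2% and 72.6% of these peaks, against 49.1% and 47.5% at ratios of 0.4 to 0.6. These promoters were picked by CpG content around the TSS, so a lower GC content away from the TSS can follow from that choice. No matched position without a peak was compared. The part of GC content in the position of the peaks was not tested.

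The 3 member genes of highest CpG content found in both replicates all had their peaks before the TSS. At Hnrnpa0, which encodes an RNA-binding protein, midpoints were at −685 bp in replicate 1 and −721 bp in replicate 2, with scores of 79 and 152. At Arhgap5, a GTPase-activating protein, they were at −476 and −438 bp, with scores of 30 and 79. At Zdhhc5, a palmitoyltransferase, they were at −362 and −304 bp, with scores of 72 and 181. In none of these 6 peaks was the TSS inside the peak.

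Peak position was also read by motif. At isolated promoters with the NFY letters the median midpoint was 12 and 17 bp after the TSS, and 53.6% (48.5 to 58.6) and 51.4% (47.5 to 55.3) of midpoints were downstream, against 59.8% and 61.2% of all members, with intervals that overlap in replicate 1 and not in replicate 2. At promoters with the GC box letters these shares were 51.7% (47.9 to 55.5) and 53.2% (50.4 to 55.9), with intervals below those of all members in both replicates. At promoters with the ETS letters they were 61.9% and 61.4%, close to all members. Of 3435 isolated promoters with the GC box letters, 2627 are CpG-rich, and CpG-rich members were at 56.0% (53.0 to 59.0) and 58.5% (56.4 to 60.6). Among all motifs searched, the shares ran from 42.4% and 41.7% with the ZBTB33 letters (33 and 66 peaks) to 65.3% and 66.4% with the NRF1 letters (52 and 135 peaks).

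Isolated promoters had a peak less often than crowded ones, those of the 8516 coding genes with another start within 5000 bp. Among crowded promoters, only those with that start within 1000 bp stood above isolated promoters. Crowded promoters as a whole had a peak in 17.3% (16.5 to 18.1) and 33.2% (32.2 to 34.2) of cases, a difference of −6.09 and −11.2 percentage points. The mean difference was −8.64 ± 3.62 points (SD, n = 2), and −13.9 or −4.74 points with the distance limit at 2000 or 10000 bp. Among CpG-rich promoters it was smaller, with 25.4% and 47.5% at crowded against 22.3% and 43.8% at isolated promoters. By distance to the nearest other start, the share was 24.1% and 45.4% within 500 bp, 18.6% and 32.5% from 500 to 1000 bp, 9.45% and 20.1% from 1000 to 2000 bp, and 9.16% and 19.2% from 2000 to 5000 bp. Past the limit of the rule, at 5000 to 10000 bp, it was 9.74% and 19.5%. It was higher again farther out, at 10.6% and 20.7% from 10000 to 20000 bp, 12.8% and 25.1% from 20000 to 50000 bp and 12.9% and 24.0% from 50000 to 100000 bp. For the 320 genes past 100000 bp it was 11.6% and 24.7%. CpG-rich promoters made up 3153 of the 4101 within 500 bp and 362 of the 963 from 1000 to 2000 bp. Among CpG-rich promoters the share was 27.7% and 52.1% within 500 bp, 20.4% and 36.7% from 1000 to 2000 bp and 18.6% and 37.8% from 2000 to 5000 bp. It was 20.1% and 41.1% from 5000 to 10000 bp, 24.1% and 46.6% from 20000 to 50000 bp and 17.5% and 37.3% for 126 past 100000 bp. At the limit of the rule, genes whose neighbor lay up to 500 bp nearer gave 7.93% and 16.6% and those whose neighbor lay up to 500 bp farther 8.95% and 18.9%. Divergent coding pairs stood at 31.9% and 55.7%, and at 33.9% and 58.9% when CpG-rich.

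Member peaks had a median score of 36 in replicate 1 (quartiles 25 and 51) and 43 in replicate 2 (30 and 64.25), and median widths of 354 and 413 bp. Peaks at crowded promoters had scores of 37 and 46 and widths of 368 and 430 bp. Peaks at no coding promoter had scores of 28 and 32 and widths of 307 and 337 bp. Repeats were rare among members: 0.793% and 0.570% of member peaks were at least 50% soft-masked, against 32.0% and 28.2% of peaks at no coding promoter. The strongest member peak of each replicate, with scores of 4910 and 6452 at Gm10800, was 84.2% masked. Genes named by rank or width below are those with member peaks under 50% masked in both replicates, which leaves out Gm10800, Gm21738 and Gm10801, the 3 best ranks of all.

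Of the 3419 member regions, 1091 (31.9%, 30.4 to 33.5) held peaks of both replicates, 429 only of replicate 1 and 1899 only of replicate 2. The shared regions were 71.8% of the member regions of replicate 1 and 36.5% of those of replicate 2. At crowded promoters 34.3% of regions were shared, at divergent pairs 43.2% and at no coding promoter 15.4%. Shared member peaks had median scores of 40 and 61, single ones 29 and 36. The 1077 overlapping pairs of member peaks had a Spearman correlation of scores of 0.404, given as a description, since pairs share their libraries. Their midpoints differed by a median of 84 bp, and 84.1% lay on the same side of the TSS in both replicates. At the downstream limit of the rule, 23 and 65 member peaks began in the last 100 bp of the window, and 14 and 43 peaks began in the 100 bp past it. Most member genes, 3267, had 1 region. The other 76 member genes had 2 regions, at a median gap of 254.5 bp, and in 32 of them the TSS lay between the regions.

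**Figure D4:**
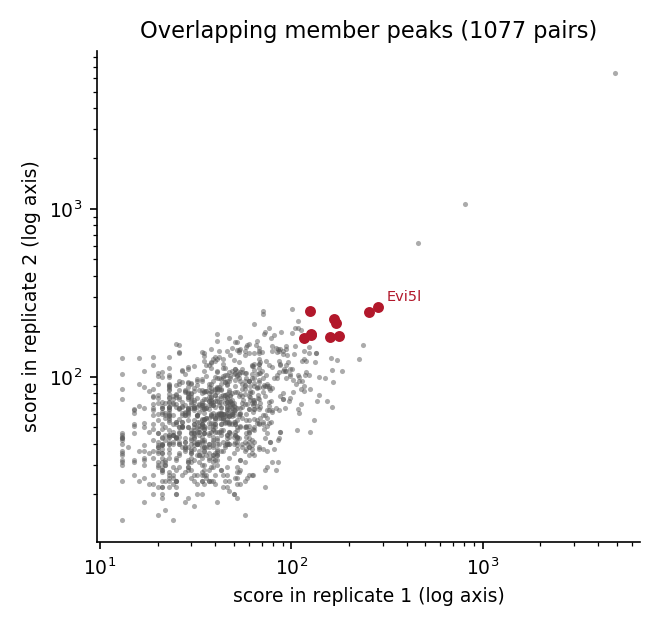
Peak score in replicate 2 (y axis) against replicate 1 (x axis), both on log scales, for 1077 pairs of overlapping member peaks. Red points are the 10 genes with the best ranks in both lists among peaks under 50% soft-masked, of which Evi5l is labeled; the isolated points at the top right, up to 4910 and 6452, are masked sequence at 3 predicted genes.

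Among peaks under 50% masked, the 10 genes with the best ranks in both lists were Evi5l, Mtrf1l, Slc25a42, Aco1, Mcph1, Zfp868, Upf3a, Lims1, Ap2a1 and Gsk3b. Evi5l, which belongs to the TBC family of Rab GTPase-activating proteins, had scores of 283 in replicate 1 and 261 in replicate 2. Its peaks ended 82 and 16 bp before the TSS. Mtrf1l, a mitochondrial translation release factor, had scores of 254 and 243. Slc25a42, a mitochondrial carrier of coenzyme A, had scores of 168 and 220 and peaks that ended 71 and 41 bp before the TSS. Aco1, the cytosolic aconitase that also binds iron-responsive RNA elements, had scores of 172 and 209 and midpoints 113 and 376 bp after the TSS. Upf3a, a factor of nonsense-mediated RNA decay, had scores of 127 and 178 and peaks across the TSS. Lims1, an adaptor of focal adhesions, had scores of 177 and 176, and Gsk3b, a kinase of the Wnt pathway, 117 and 171. The remaining 3 encode microcephalin (Mcph1), a zinc finger protein (Zfp868) and a subunit of the AP-2 clathrin adaptor (Ap2a1). The 3 widest shared peaks under 50% masked, by the narrower of both replicates, were at Wwox, at 952 and 955 bp, at Egfr, the epidermal growth factor receptor, at 901 and 931 bp, and at Ankhd1, at 1017 and 878 bp. Masked peaks at Gm21738, of 3741 and 3874 bp, and at Gm10800, of 1020 bp in both, were wider.

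Of the 10 genes, 5 lie on chromosome 8, which holds 4.25% of isolated genes and 7.62% of the 1076 genes with overlapping peaks in both replicates. Isolated promoters on chromosome 8 had a peak in 18.9% (15.9 to 22.4) and 31.2% (27.6 to 35.1) of cases, the highest share of any chromosome in both replicates. Among CpG-rich promoters it was 29.1% and 51.6%, against 22.3% and 43.8% over all chromosomes, and chromosome 3 was as high, at 29.9% and 50.4%. The X chromosome was lower than every autosome, at 6.83% (5.19 to 8.94) and 14.1% (11.7 to 16.8). Among CpG-rich promoters it was at 17.0% and 33.9%, and in replicate 1 chromosomes 5 and 15 were lower, at 16.9% and 14.0%.

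In 8 groups made up mostly of CpG-rich promoters the listed shares were above those of isolated promoters as a whole, while their CpG-rich members were mostly near the 22.3% and 43.8% of all CpG-rich isolated promoters. The lists were chosen with results of these data known, so their shares are descriptions beside 11.2% and 22.0% of all isolated promoters. Of 36 isolated cell cycle genes, 32 of them CpG-rich, 10 (27.8%) had a peak in replicate 1 and 21 (58.3%) in replicate 2. Examples are Ttk, a spindle checkpoint kinase, with scores of 73 and 88, Ccna2, which encodes cyclin A2, with 71 and 59, and Mad2l1, a checkpoint protein, with 75 and 57. DNA replication genes had a peak at 5 and 11 of 21, among them Gins4 with scores of 74 and 103 and Mcm6, a subunit of the replicative helicase, with 23 and 66. Membrane trafficking genes were at 13 and 30 of 68, led by Rab1a with scores of 65 and 154, and mitochondrial ribosomal proteins at 6 and 12 of 29, led by Mrps28 with 68 and 142. Proteasome subunits were at 5 and 9 of 20, and ubiquitin enzymes at 11 and 18 of 51, with Usp22, a deubiquitinase of the SAGA complex, at scores of 174 and 126. Polycomb genes were at 5 and 7 of 17, and Suz12, a core subunit of PRC2, had scores of 43 and 59. Ciliary transport genes were at 3 and 6 of 11. The intervals lay above the shares of all isolated promoters in both replicates for cell cycle (15.8 to 44.0 and 42.2 to 72.9), membrane trafficking (11.5 to 30.0 and 32.9 to 55.9) and ubiquitin genes (lower bounds of 12.5 and 23.6). They held 11.2% in replicate 1 for DNA replication, mitochondrial ribosomal, proteasome and ciliary genes, and 22.0% in replicate 2 for Polycomb genes. Counting CpG-rich members alone, cell cycle genes were at 28.1% (15.6 to 45.4) and 62.5% (45.3 to 77.1), DNA replication genes at 29.4% and 58.8%, and ubiquitin enzymes at 34.4% and 56.3%. Membrane trafficking genes were at 23.4% and 51.1%, Polycomb genes and proteasome subunits each at 26.7% and 46.7%, and mitochondrial ribosomal proteins at 17.4% and 43.5%. The intervals of these 7 lists hold the shares of all CpG-rich isolated promoters in both replicates, except that of cell cycle genes in replicate 2.

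**Figure D5:**
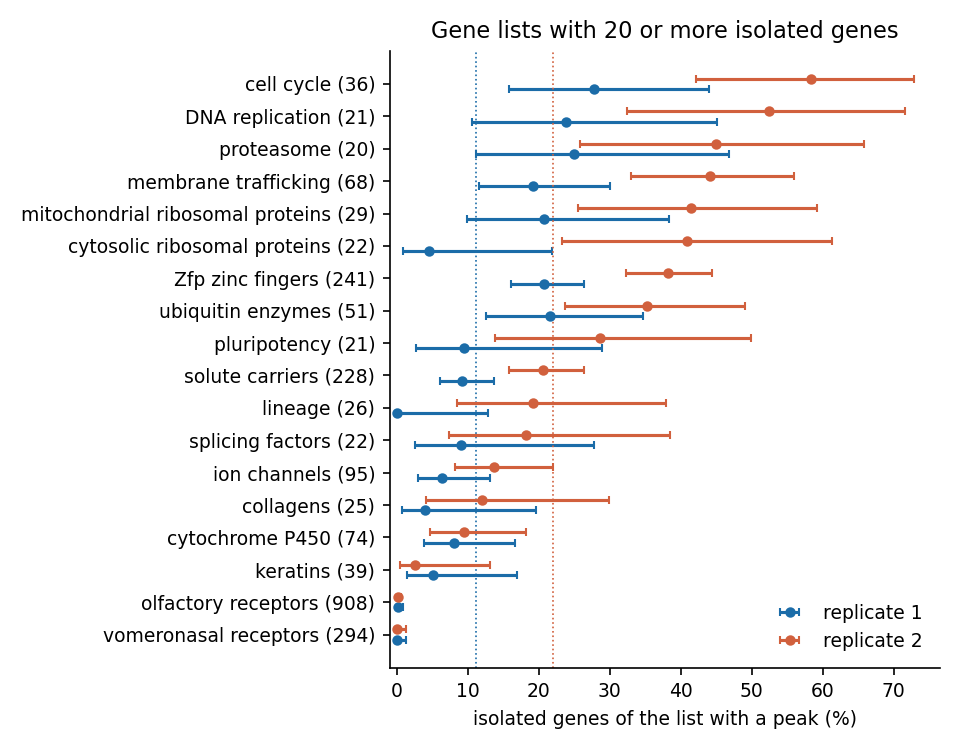
Percent of the isolated genes of each list with a SRCAP peak (x axis) for lists with at least 20 isolated genes (number in brackets), in replicates 1 and 2, with 95% Wilson intervals. Dotted lines give all isolated promoters, 11.2% in replicate 1 and 22.0% in replicate 2; cell cycle genes are at 27.8% and 58.3% and olfactory receptors at 0.220% and 0.110%.

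Other lists were near all isolated promoters, lower or uneven between replicates. Splicing factors, with 17 of 22 promoters CpG-rich, had a peak at 2 (9.09%, 2.53 to 27.8) and 4 genes (18.2%, 7.31 to 38.5). Cytosolic ribosomal proteins had a peak at 1 of 22 genes in replicate 1 (4.55%, 0.807 to 21.8) and at 9 in replicate 2 (40.9%, 23.3 to 61.3); the 1 found in both was Rps27l, with scores of 40 and 72. Ion channels were at 6 (6.32%, 2.93 to 13.1) and 13 (13.7%, 8.17 to 22.0) of 95, and their 31 CpG-rich members at 12.9% and 16.1%. Solute carriers were at 21 and 47 of 228, close to all isolated promoters. Collagens were at 1 (4%, 0.710 to 19.5) and 3 (12%, 4.17 to 30.0) of 25 and Hox genes at 0 (0 to 27.8) and 2 (20%, 5.67 to 51.0) of 10. The intervals of splicing factors, solute carriers, collagens and Hox genes hold 11.2% and 22.0%. Cytochrome P450 genes were at 6 (8.11%, 3.77 to 16.6) and 7 (9.46%, 4.66 to 18.3) of 74, and keratins at 2 (5.13%, 1.42 to 16.9) and 1 (2.56%, 0.454 to 13.2) of 39, so that both were below all isolated promoters by the interval in replicate 2 only. Few of these promoters are CpG-rich, however. The 64 CpG-poor cytochrome P450 promoters were at 3.13% (0.861 to 10.7) and 4.69% (1.61 to 12.9), with intervals that hold the 1.20% and 2.70% of all CpG-poor isolated promoters. The 26 CpG-poor keratin promoters, at 3.85% (0.682 to 18.9) in each replicate, did so too, and the other 13 keratin promoters are CpG-middle. Olfactory receptors were at 2 and 1 of 908, and vomeronasal receptors at 0 of 294 in both replicates. The olfactory receptor found in both, Olfr1431, had peak midpoints at −1145 and −1170 bp in sequence that was 82.1% and 85.3% masked.

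Zinc finger genes named Zfp had listed peaks at some CpG-poor promoters. These genes, many of which encode KRAB repressors of transposable elements, had a peak at 50 (20.7%, 16.1 to 26.3) and 92 (38.2%, 32.3 to 44.4) of 241 isolated promoters at a median CpG ratio of 0.555. Their 109 CpG-rich promoters were at 25.7% and 46.8%, near all CpG-rich promoters. Their 67 CpG-poor promoters were at 11.9% (6.18 to 21.8) and 22.4% (14.1 to 33.7), while the other 6347 CpG-poor isolated promoters were at 1.09% (0.860 to 1.37) and 2.49% (2.13 to 2.90). Those 6347 include the olfactory and vomeronasal receptors and lie at lower CpG ratios, so narrower ranges, chosen after seeing these values, were compared without the receptors. At ratios of 0.3 to 0.4, 33 Zfp promoters were at 18.2% (8.61 to 34.4) and 36.4% (22.2 to 53.4) and 972 others at 3.91% (2.86 to 5.32) and 9.47% (7.78 to 11.5). At 0.2 to 0.3, a peak was at 2 of 15 Zfp promoters in each replicate (13.3%, 3.74 to 37.9), against 1.51% (1.00 to 2.28) and 3.09% (2.32 to 4.12) of 1454 others. Under 0.2, it was at 0 and 1 of 19 Zfp promoters, with intervals that overlap those of the 2683 others. With only peaks of a score of at least 50, the 67 CpG-poor Zfp promoters were at 2.99% and 13.4%, against 0.218% and 0.780% of all CpG-poor isolated promoters. No test of the differences between Zfp and other promoters was run. All 8 CpG-poor Zfp genes found in replicate 1 were also found in replicate 2. Zfp960 had scores of 84 in replicate 1 and 103 in replicate 2, with midpoints at −111 and −113 bp. The NFY letters, printed in capitals for Zfp960 above, were in 8 of the 15 CpG-poor Zfp promoters with a peak (53.3%, 30.1 to 75.2) and in 12 of the 52 without (23.1%, 13.7 to 36.1), with intervals that overlap. At other CpG-poor promoters they were in 47 of 194 with a peak (24.2%) and in 797 of 6153 without, and over all Zfp promoters in 26.7% and 19.3%. Many Zfp genes lie in clusters of similar copies, but how alike these promoters are to other sequence was not measured. The study describes unique alignment, so peaks may be missed where reads fit several copies, and these values are uncertain there.

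CpG-poor members were few: 41 CpG-poor isolated genes had a peak in both replicates. Of these, 8 were Zfp genes, 2 had a peak at least 50% masked, 21 had another own start over 1000 bp from the most 5′ one, and none had the TATA letters. Zfp genes were 67 of all 6414 CpG-poor isolated promoters. Of all 13422 isolated promoters, 373 had the TATA letters, and 8024 had another own start over 500 bp away. The counts of own starts and TATA letters are therefore not read as traits of these genes. The 3 best ranked were Cers4, a ceramide synthase, with scores of 99 and 104, Zfp960, and 2610044O15Rik8, with scores of 58 and 150.

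Pluripotency genes had a peak at 9.52% (2.65 to 28.9) and 28.6% (13.8 to 50.0) of their isolated promoters, with intervals that hold the shares of all isolated promoters. Of 21 isolated ones, 8 of them CpG-rich, 2 had a peak in replicate 1 and 6 in replicate 2. Stat3, the transducer of LIF signals, had scores of 136 and 72 and midpoints at −143 and −151 bp. Zfp42, also known as Rex1, had scores of 23 and 64 with midpoints 20 and 4 bp after the TSS. Klf2, Tfcp2l1, Etv5 and Utf1 had a peak in replicate 2 only, with scores of 79, 60, 60 and 28. The isolated promoters of Nanog, Klf4, Klf5, Esrrb, Prdm14 and Tet1 had none in either list. No expression or start site data were used to find the start in use, and each absence concerns the most 5′ annotated start only. That start was CpG-poor at Nanog, Esrrb and Tet1, with ratios of 0.303, 0.283 and 0.148. Other starts of Esrrb and Tet1 lay up to 143292 and 94457 bp away, and those of Nanog up to 79 bp away. Of 26 isolated lineage regulators, none had a peak in replicate 1 (0%, 0 to 12.9) and 5 had one in replicate 2 (19.2%, 8.51 to 37.9). These intervals also hold the shares of all isolated promoters, 11.2% and 22.0%. For the 14 CpG-rich ones the shares were 0% (0 to 21.5) and 35.7% (16.3 to 61.2), against 22.3% and 43.8% of all CpG-rich isolated promoters, so that in replicate 1 the interval lay below. Among these were Isl1 with a score of 56, Pax3 with 32, Mixl1 with 24 and Eomes with 14, the last of them next to the lowest score listed, 13.

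Genes of the SRCAP complex and of H2A.Z itself are mostly not isolated. Of 13, 6 were, and the only peak at these was at Ruvbl1, an ATPase of the complex, in replicate 1 with a score of 45. The shares were thus 16.7% (3.01 to 56.4) and 0% (0 to 39.0), with intervals that hold the 11.2% and 22.0% of all isolated promoters. Actl6a, Dmap1, Actb, Actr6 and Anp32e, the last a chaperone that removes H2A.Z, had none. Of 6 isolated genes of interest to the study, 1 had a peak in replicate 1 (16.7%, 3.01 to 56.4) and 2 in replicate 2 (33.3%, 9.68 to 70.0), and these intervals hold the same shares. Zfp42, described above, had one in both, Nrf1 in replicate 2 only, with a score of 27, and the isolated promoters of Zbtb33, Meis1, Lefty2 and Nanog had none.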

How the data were processed

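SRCAP CUT&Tag was performed in 2 replicates of SYAT cells. For each sample the authors deposited a peak list with positions in mm10 and a score. Per the labels, STAR, Picard and MACS2 were used with the mouse and Drosophila (dm6) genomes, and the study describes unique alignment and duplicate removal under 1 heading for ChIP-seq and CUT&Tag. The study's reporting form gives 1 general peak calling command that sets an input library against each sample, and does not say whether an input entered these lists. The lowest score is 13, which matches the peak caller's q-value limit of 0.05. The lists hold no read number, so depth is unknown, and scores and peak numbers are not comparable between libraries.

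TSSs came from GENCODE mouse release M21 (chromosomes 1 to 19, X and Y) and sequence from GRCm38. A RefSeq promoter entry was found for 2639 of the 3343 member genes, and for 2169 of them (82.2%) a RefSeq start lay within 100 bp of the TSS used. Positions are signed along transcription, negative before the TSS. Python 3.11.15 with pandas 2.3.3, numpy 2.4.6, scipy 1.17.1 and pysam 0.24.0 was used, and the selection was tested on simulated data. No test was run. Genes were named by rank in both lists (each gene's worse rank, among peaks under 50% soft-masked), by membership in the lists and by extreme CpG content or width under the same limit. Members and lists were chosen with earlier results of these data known. The alternatives tried are named in the closing section. Values of 1 listed gene are not reported here.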

Additional observations from a re-analysis of the deposited data

How the results depend on the processing

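Apart from leaving out a replicate, 146 values were computed under alternatives. Of these, 116 moved by less than the spread of the replicates (for counts, by less than 1.5 times; for the shared percentage, within its interval), and none changed sign. With 2 replicates the SD is large, and a value of 1 replicate always lies within it of their mean. Alternatives for the position by CpG content, for CpG-poor Zfp promoters and for chromosome 8 were chosen after seeing the data. Depth is unknown and limits every absence of a peak. No paired analysis was possible because all samples form 1 group.

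Leaving out each replicate in turn gave 1513 to 2984 member regions, of 3419 in all. Requiring a score of at least 50 gave 1359 member regions at 6.12% of isolated genes, 20.97% of them shared, with median score 67 (64 and 70 in replicates 1 and 2), width 462.5 bp, midpoint 32.5 bp and 56.0% downstream; the share with a peak was then 12.9% at CpG-rich, 0.499% at CpG-poor and 8.21% at CpG-poor Zfp promoters, the difference from crowded promoters −4.26 points and the difference in downstream share between low and high CpG 37.4 points. Requiring that the peak contain the TSS gave 1927 regions, 41.6% shared, with width 432.5 bp, midpoint 55 bp, 64.2% downstream, 0.834% at CpG-poor promoters and a difference between low and high CpG of 15.8 points; it also took member genes from 16.6% to 9.02% of isolated genes, CpG-rich promoters to 18.2% and the difference from crowded promoters to −5.27 points, each over 1.5 times though within the SD. Genes whose starts lie within 500 bp gave 1013 regions, a midpoint of 84 bp, 64.0% downstream and 25% at CpG-poor Zfp promoters. No other start within 2000 bp or within 10000 bp changed the difference from crowded promoters to −13.9 and −4.74 points. Counting only starts of coding genes as neighbors gave 58.5% downstream. Lists of equal length gave 36.2% shared and a median score of 47 (36 and 58). Replicate 2 then fell from 22.0% to 13.6% of isolated genes, from 43.8% to 28.0% at CpG-rich and from 2.70% to 1.40% at CpG-poor promoters. Other values, apart from region numbers and shared percentages, are means of both replicates. Merging over 500 bp gave 34.0% shared and requiring 50% overlap of both peaks 23.6%. Beyond fewer peaks or genes, the cause was not tested.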
